A study of Saccharomyces cerevisiae with 8 samples.

Results

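The 10 genes described here encode the high-affinity iron uptake systems of the yeast Saccharomyces cerevisiae. They were taken by name: FET3 (YMR058W), FTR1 (YER145C) and FRE2 (YKL220C) of reductive uptake, ARN1 (YHL040C), ARN2 (YHL047C), SIT1 (YEL065W) and ENB1 (YOL158C) of siderophore uptake, and the cell wall genes FIT1 (YDR534C), FIT2 (YOR382W) and FIT3 (YOR383C). All 10 of them, among 6227 genes on the arrays, were found by systematic name, with 1 probe on 2 spots each. BY4743, a diploid laboratory strain, was cultured for 3 h at 30 °C in rich YPD medium, as 120 ml cultures shaken at 130 rpm. The control group (n = 4 arrays) had no isopropanol, and the other group (n = 4) had 40 g/l isopropanol, also known as 2-propanol. That dose is taken from the source names, the characteristics and the series design, whereas the isopropanol samples' description field writes mg in place of g. Total RNA was labelled with 1 dye, and no other genotype or dose was analysed here. Both groups were the same strain in the same medium otherwise, and the labels give no iron level for it.

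Yeast takes up iron in several ways. In reductive uptake, surface reductases of the FRE family reduce ferric iron, and the multicopper oxidase Fet3 and the permease Ftr1, which work as a complex, carry it in. In siderophore uptake, transporters of the ARN family import whole complexes of iron with siderophores, small chelators made by other microbes, and Fit mannoproteins hold such complexes in the cell wall. Both systems are best known as targets of the transcription factors Aft1 and Aft2, which activate them when cells are short of iron.

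All values are log2 signal relative to the 75th percentile of yeast spots on the same array, a level of 1309 to 1675 intensity units on control arrays and 1801 to 2449 on isopropanol arrays. Between 92.3% and 95.9% of yeast spots were well above background, and 0 were saturated. Slide 1 held the control arrays and slide 2 the isopropanol arrays. Treatment therefore cannot be told apart from slide. Control replicate 3 had a scan of its own, the other controls shared 1 scan and the isopropanol arrays another, so scan is confounded with treatment too. Cultures are not assigned to arrays in the labels, and p-values cover only the spread between the arrays, which may be technical. URA3 and LEU2, which BY4743 lacks, were above background in 0 of 16 and 1 of 16 spot readings. On isopropanol replicate 1 the spike-in RNAs stood at -1.76 relative to the 75th percentile, whereas the other 3 isopropanol arrays gave -0.24 to 0.00 and the controls 0.40 to 0.99. Scaled on the spike-ins, all changes below would shift up by 1.16, or by 0.76 without that array.

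The iron uptake genes did not move as a block. Of the 10 members, 7 rose and 3 fell relative to the 75th percentile in limma (Benjamini-Hochberg adjusted p under 0.05 over 5816 genes tested), where 47.6% of all tested genes rose and 30.1% fell. Groups did not overlap for any of the 10, against 73.2% of tested genes. ARN1 and FIT2 rose at least 2-fold, as 7.43% of tested genes did, and no member fell that far, as 1.99% did. The members' median log2 change was 0.34, against 0.11 over all tested genes. After quantile normalization it was 0.08, against -0.02. With 77.8% of tested genes changed in either direction, the number of members that passed does not set them apart. Their changes ran from -0.57 (ENB1) to 1.56 (FIT2). On the spike-in scale FET3, FTR1 and ENB1 lay above 0 and none of the 10 fell. A culture's signal is a mean over its cells, so fewer cells with a transcript and less transcript per cell cannot be told apart.

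**Figure D1:**
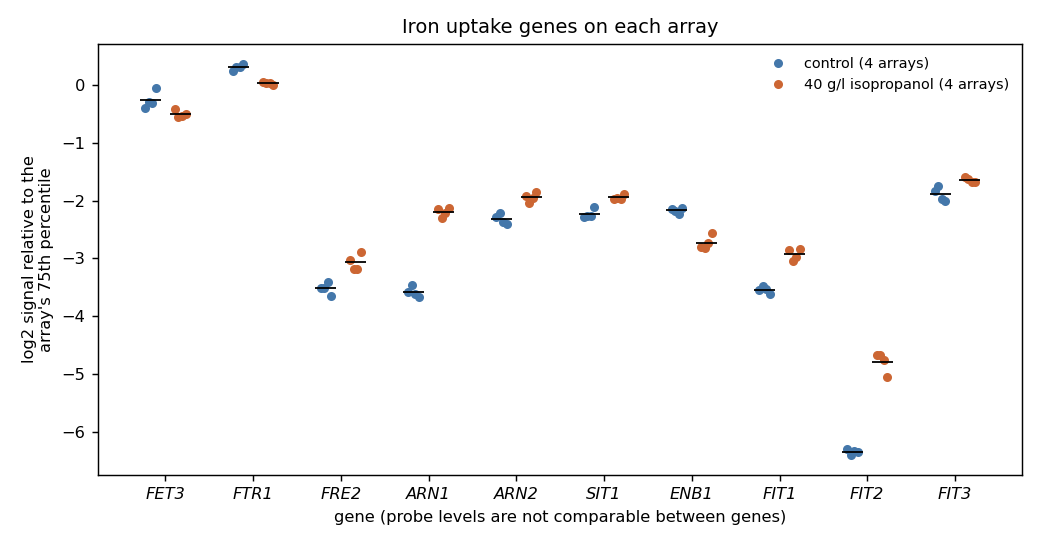
Log2 signal relative to the array's 75th percentile (vertical axis) for each of the 10 iron uptake genes on 4 control arrays (blue) and 4 arrays of 40 g/l isopropanol (orange), with black lines at group means. The groups do not overlap for any gene, with FET3, FTR1 and ENB1 lower on isopropanol arrays and the other 7 genes higher.

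Changes on these arrays also went with signal, and dim probes tended to rise. Tested genes were therefore divided by mean signal over all arrays into 20 classes of 290 or 291 genes, a description added after the data were seen. The median change was 0.67 in the dimmest class and -0.40 in the brightest. Relative to its own class, ARN1 stood 1.13 higher, FIT2 0.90 higher and FIT1 0.25 higher, while ENB1 stood 0.80 lower. FRE2, SIT1, FIT3 and ARN2 stood only 0.07 to 0.16 above their classes. FET3 and FTR1 stood 0.28 and 0.23 below theirs. The median of the members' differences from their classes was 0.09.

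**Figure D2:**
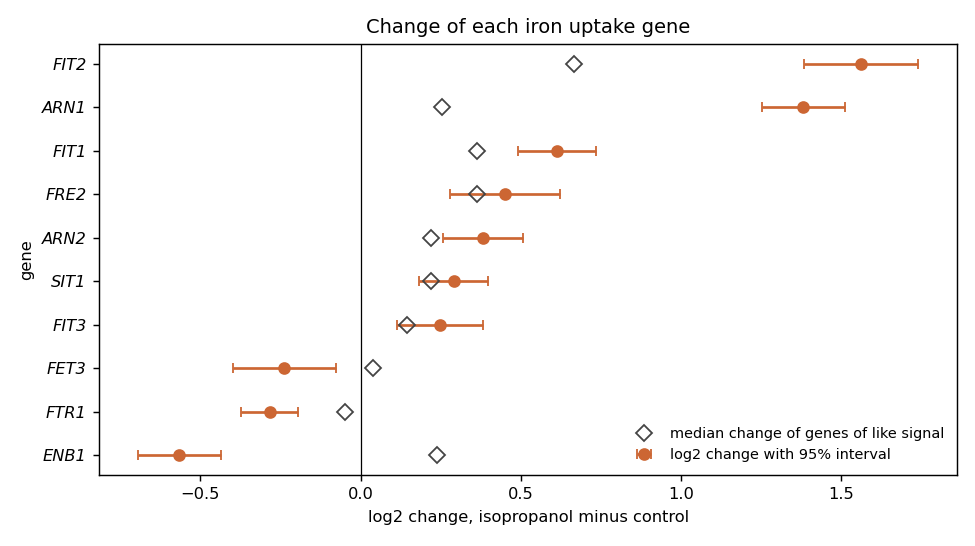
Log2 change of each iron uptake gene, isopropanol minus control, with its 95% interval (orange, limma, n = 4 arrays per group), and the median change of genes of like mean signal (open diamonds). ARN1 and FIT2 lie far to the right of their diamonds and ENB1 far to the left, while the intervals of FRE2, SIT1 and FIT3 hold theirs.

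The permease and oxidase genes of reductive uptake both fell slightly. FET3, the ferroxidase gene, read -0.40, -0.29, -0.31 and -0.05 on the 4 control arrays and -0.42, -0.56, -0.53 and -0.50 on the isopropanol arrays. Control replicate 4 was the highest of these, and the lowest control and the highest isopropanol reading were only 0.014 apart. FET3 fell 1.18-fold (log2 -0.24, SE 0.07, limma adjusted p = 0.0115). FTR1, the gene of its partner permease, read 0.25, 0.31, 0.32 and 0.37 on control arrays and 0.05, 0.03, 0.03 and -0.01 on isopropanol arrays. All its isopropanol readings lay close together below the controls. FTR1 fell 1.22-fold (log2 -0.28, SE 0.04, limma adjusted p = 8.52e-05). On the spike-in scale both genes turned positive, at 0.93 for FET3 and 0.88 for FTR1. There FET3 passed as higher (limma adjusted p = 0.0457) and FTR1 did not pass (0.0568), with an SE of 0.44 for both. Without isopropanol replicate 1 both passed as higher on that scale (limma adjusted p = 0.0132 for FET3 and 0.0189 for FTR1). Before any scaling FET3 was at 1267 to 1333 intensity units on control arrays and 1277 to 1802 on isopropanol arrays. FTR1 was at 1694 to 2059 on control arrays and 1794 to 2505 on isopropanol arrays. The difference between the pair on the same array, which is not altered by adding 1 shift to all genes of an array, went from 0.57 ± 0.11 to 0.53 ± 0.06 (log2 FTR1 minus FET3, SD, n = 4). This shift of -0.05 did not pass an exact 2-sided permutation test (p = 0.457, and 0.457 adjusted over 4 such pairs).

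The reductase gene FRE2 moved the other way. It read -3.51, -3.50, -3.40 and -3.66 on control arrays and -3.03, -3.18, -3.18 and -2.88 on isopropanol arrays. Every isopropanol reading exceeded every control reading. FRE2 rose 1.37-fold (log2 0.45, SE 0.08, limma adjusted p = 0.00035), but after quantile normalization the change was 0.05 and did not pass (adjusted p = 0.541). FRE1, the main surface reductase gene for both iron and copper, is no member and was compared as a partner of FRE2. It rose 1.49-fold (log2 0.57, SE 0.05). The within-array difference FRE2 minus FRE1 went from -3.29 ± 0.05 to -3.41 ± 0.16 (SD, n = 4), which did not pass the exact permutation test (p = 0.229, adjusted 0.305). With normexp background correction and quantile normalization that shift was -0.51 in place of -0.12. The exact permutation p was then the smallest that 4 against 4 arrays can give, and 0.0381 after adjustment. FRE2 was dim (104 to 295 intensity units before any scaling), and normexp added an offset of 50 units. Whether that offset made the shift was not tested.

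The 4 siderophore transporter genes split widely. ARN1, whose product imports ferrichrome-type siderophores, read -3.58, -3.46, -3.62 and -3.66 on control arrays and -2.14, -2.31, -2.22 and -2.12 on isopropanol arrays. The gap between the groups was far wider than the spread within either. ARN1 rose 2.61-fold (log2 1.38, SE 0.06, limma adjusted p = 1.31e-08), which placed it 210th among 5816 tested genes in order of rise. With normexp and quantile normalization its log2 change was 0.72.

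ENB1, the gene of the enterobactin transporter, was the member that fell most. It read -2.14, -2.17, -2.22 and -2.13 on control arrays and -2.80, -2.82, -2.74 and -2.57 on isopropanol arrays. The isopropanol readings were all lower, with replicate 4 nearest to the controls. ENB1 fell 1.48-fold (log2 -0.57, SE 0.06, limma adjusted p = 7.95e-06). Among genes of like signal, 61.9% rose and 14.4% fell. On the spike-in scale its change was 0.60 and did not pass (adjusted p = 0.188), and before any scaling its signal was 300 to 380 intensity units on control arrays and 304 to 357 on isopropanol arrays.

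ARN2 and SIT1 rose less. ARN2, for a transporter of triacetylfusarinine-type siderophores, read -2.29, -2.22, -2.38 and -2.40 on control arrays and -1.92, -2.04, -1.96 and -1.85 on isopropanol arrays. It rose 1.30-fold (log2 0.38, SE 0.06, limma adjusted p = 0.000113), a call lost with normexp and quantile normalization (0.07, adjusted p = 0.216). SIT1, for the ferrioxamine transporter, read -2.28, -2.26, -2.27 and -2.12 on control arrays and -1.98, -1.95, -1.96 and -1.88 on isopropanol arrays. Both genes had groups that did not overlap. SIT1 rose 1.22-fold (log2 0.29, SE 0.05, limma adjusted p = 0.000274), but its change was 0.08 after quantile normalization and did not pass (adjusted p = 0.16). The difference ARN2 minus ARN1 on the same array went from 1.26 ± 0.03 to 0.26 ± 0.02 (SD, n = 4), in the same direction on all 4 isopropanol arrays. The exact 2-sided permutation p was 0.0286, the smallest that 4 against 4 arrays can give, and it did not pass after adjustment over the 4 pairs (0.0571). With only 2 of the 4 pairs at that smallest p, no lower adjusted value was possible, however large the shift.

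All 3 FIT genes rose, by unequal amounts. FIT2 read -6.30, -6.41, -6.34 and -6.35 on control arrays and -4.67, -4.66, -4.76 and -5.05 on isopropanol arrays. Isopropanol replicate 4 was lower than the other 3, and all were well above the controls. FIT2 rose 2.96-fold (log2 1.56, SE 0.08, limma adjusted p = 5.2e-08). Its probe was dim, at 16.0 to 21.2 intensity units on control arrays and 54.3 to 96.6 on isopropanol arrays, and its 2 spots differed by up to 0.53 (log2) on 1 array. It was nevertheless well above background on all 8 arrays. With normexp, which adds an offset of 50 units, and quantile normalization, its log2 change was 0.35.

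FIT1 read -3.55, -3.48, -3.52 and -3.62 on control arrays and -2.86, -3.04, -2.97 and -2.84 on isopropanol arrays. It rose 1.53-fold (log2 0.61, SE 0.05, limma adjusted p = 2.72e-06), and its change was 0.23 after quantile normalization alone and 0.14 with normexp and quantile normalization together. FIT3 read -1.84, -1.74, -1.97 and -2.02 on control arrays and -1.60, -1.63, -1.67 and -1.67 on isopropanol arrays. The gap between its groups was narrow beside the spread of the controls. FIT3 rose 1.19-fold (log2 0.25, SE 0.06, limma adjusted p = 0.00354), a call lost after median centring (0.09, adjusted p = 0.195) and after quantile normalization (0.08, adjusted p = 0.228).

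FIT2 and FIT3 are neighbours on the chromosome, with FRE3 before them, beyond the small gene YOR381W-A, and FRE5 after them in the RefSeq gene order. FRE3 and FRE5, reductase family genes, are given here after their values were seen. FRE3 did not pass, with a log2 change of 0.09 (95% interval -0.0021 to 0.17). It was called lower after quantile normalization (-0.33, adjusted p = 1.33e-05 in limma), with normexp and quantile normalization (-0.22) and with cyclic loess (-0.27). FRE3 was called higher with the authors' log2 values (0.10, adjusted p = 0.0497 in limma) and with scan as a random block (0.09, adjusted p = 0.00848). That block fit estimated a negative correlation between arrays of 1 scan (-0.21), and its SE for FRE3 was 0.026 in place of 0.040. Since scan is confounded with treatment, its lower p does not show a change beyond scan. FRE5 was above background in 0 of 16 spot readings. The difference FIT3 minus FIT2 on the same array went from 4.46 ± 0.15 to 3.14 ± 0.16 (log2, SD, n = 4). Its exact 2-sided permutation p of 0.0286 was the smallest possible and did not pass after adjustment over the 4 pairs (0.0571). With normexp and quantile normalization that shift was -0.21 in place of -1.32, with an exact permutation p of 0.0381 after adjustment, and that of ARN2 minus ARN1 was -0.65 with the same p. Both shifts were then smaller, and the adjusted p was lower only because FRE2 minus FRE1 also reached the smallest p.

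**Figure D3:**
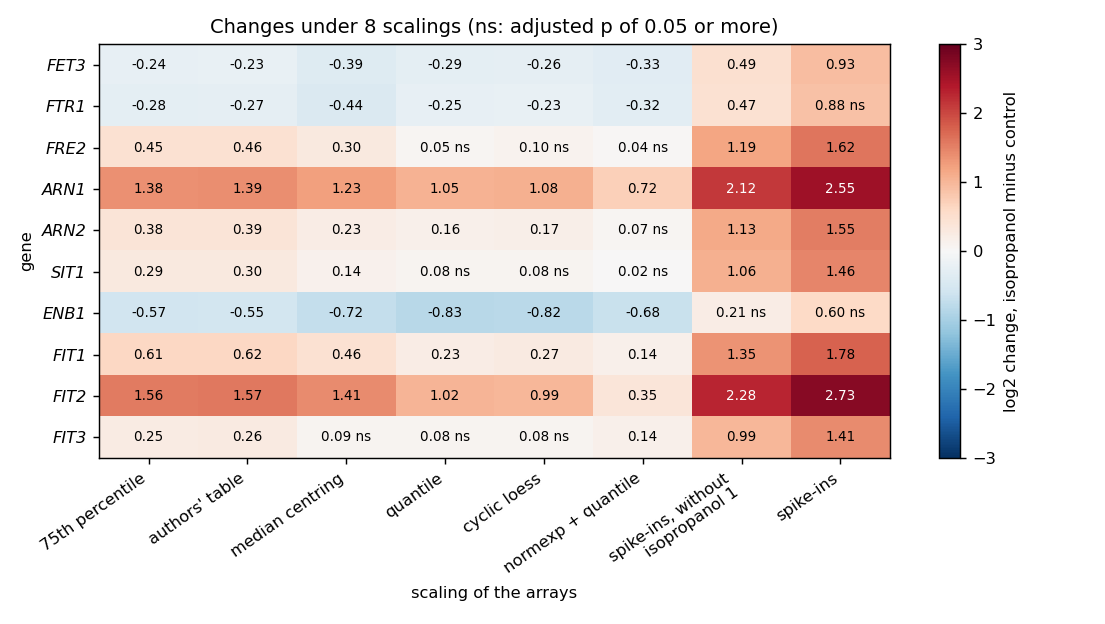
Log2 change, isopropanol minus control, of the 10 iron uptake genes (rows) under 8 scalings of the arrays (columns), with colour from blue (lower) to red (higher) and "ns" where limma's adjusted p was 0.05 or more. ARN1, FIT1 and FIT2 are positive in every column, FET3, FTR1 and ENB1 are negative except on the spike-in scales, and FRE2, ARN2, SIT1 and FIT3 come near 0 in the middle columns.

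Genes of the regulators of this system were read on the same arrays. Of 7 such genes, 4 rose, 2 fell and 1 did not pass (median 0.23), shares near those of all tested genes (47.6% and 30.1%). AFT1 itself read -2.33, -2.32, -2.33 and -2.33 on control arrays and -1.50, -1.72, -1.64 and -1.50 on isopropanol arrays. The controls hardly differed from each other and all isopropanol readings were higher. AFT1 rose 1.67-fold (log2 0.74, SE 0.05). AFT2, its paralog, had a log2 change of -0.07 (95% interval -0.19 to 0.06) and did not pass. It was called lower under 4 of 19 alternatives other than spike-in scaling. These were median centring (-0.22), quantile normalization (-0.33), normexp with quantile normalization (-0.26) and cyclic loess (-0.31). YAP5, for a factor that answers to high iron and drives vacuolar iron storage, rose from -4.08 ± 0.08 to -2.64 ± 0.05 (SD, n = 4), or 2.70-fold (log2 1.43). With normexp and quantile normalization the log2 change of YAP5 was 0.66. Among the proteins that pass the iron signal to Aft1, the glutaredoxin gene GRX4 fell 1.42-fold and GRX3 rose 1.17-fold, FRA1 rose 1.34-fold and its partner BOL2, also called FRA2, fell 1.12-fold. GRX3 did not pass after median centring (0.08), and GRX4 and BOL2 turned positive on the spike-in scale (0.66 and 0.99).

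Among the other known targets of Aft1 and Aft2, CTH2 and HMX1 had the largest rises of the 7 iron lists relative to the 75th percentile. Of 16 listed genes, 14 were tested, FRE5 was not above background and LSO1 was not analysed here. Among the 14, 11 rose, 1 fell and 2 did not pass, with a median log2 change of 0.51, where 47.6% of all tested genes rose and 30.1% fell. After quantile normalization 8 rose and 2 fell (median 0.29), where 35.2% of tested genes rose and 38.4% fell. CTH2, whose product promotes decay of messenger RNAs for iron-using proteins, read -4.25, -4.25, -4.57 and -4.18 on control arrays and -2.25, -2.13, -2.22 and -2.33 on isopropanol arrays. It rose 4.23-fold (log2 2.08, SE 0.08), more than any of the 10 uptake genes. HMX1, the heme oxygenase gene, read -2.91, -2.82, -2.77 and -2.88 on control arrays and -1.16, -1.05, -1.14 and -1.10 on isopropanol arrays, a rise of 3.32-fold (log2 1.73, SE 0.05). The isopropanol readings of both genes stood far above the controls. SMF3, for an exporter of iron from the vacuole, rose 1.76-fold, and the vacuolar reductase gene FRE6 1.75-fold.

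The gene that fell in this list, VHT1 for the biotin transporter, fell 1.74-fold (log2 -0.80, SE 0.04) and turned to 0.37 on the spike-in scale. Beside FRE3, ATX1, for the copper chaperone that serves Fet3, did not pass (log2 0.00, 95% interval -0.12 to 0.13). ATX1 was called lower after median centring (-0.15, limma adjusted p = 0.0319). These genes were named after their values were seen. With normexp and quantile normalization together the rises of CTH2 and HMX1 were 1.16 and 1.26 (log2).

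Among 5 genes of low-affinity uptake, iron storage and mitochondrial import, 3 rose, 0 fell and 2 did not pass in limma (median 0.31), beside 47.6% higher and 30.1% lower over all tested genes. FET4, the low-affinity iron transporter gene, read -0.27, -0.07, -0.13 and -0.35 on control arrays and 0.63, 0.71, 0.83 and 0.85 on isopropanol arrays. FET4 thus rose 1.95-fold (log2 0.96, SE 0.07), while FET3 and FTR1 of the high-affinity route fell. MRS3, a mitochondrial iron carrier gene, rose 1.28-fold and the metal transporter gene SMF2 1.24-fold. CCC1, for the vacuolar iron importer, and SMF1, for a manganese transporter, did not pass, with log2 changes of -0.06 and -0.10, and were named after their values were seen. Both were called lower after median centring (-0.21 and -0.26) and were above 0 on the spike-in scale. SMF1 passed as lower under 6 of 19 alternatives other than spike-in scaling, among them quantile normalization (-0.26, adjusted p = 0.000316 in limma) and leaving out isopropanol replicate 4 (-0.14, adjusted p = 0.0107).

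Genes that build or use iron-sulfur clusters went both ways, where 47.6% of all tested genes rose and 30.1% fell. Of 16 mitochondrial assembly genes, 6 rose and 6 fell (median 0.04). ISU2, a scaffold gene, rose 2.10-fold (log2 1.07, SE 0.05), IBA57 rose 1.46-fold and the chaperone gene SSQ1 1.45-fold, whereas YFH1, for frataxin, fell 1.41-fold. Of 8 cytosolic assembly genes, 2 rose and 3 fell (median 0.03). DRE2 rose 1.32-fold and NBP35 1.12-fold, CIA1 fell 1.26-fold and TAH18 1.24-fold, and NBP35 did not pass after quantile normalization or median centring (0.01 each). YFH1, CIA1 and TAH18 were above 0 on the spike-in scale.

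Of 15 genes of iron-sulfur and heme enzymes, 8 rose and 4 fell (median 0.16), near the shares of all tested genes (47.6% and 30.1%). After median centring 5 rose and 5 fell, where 34.5% of tested genes rose and 42.1% fell. ACO1, for aconitase of the citrate cycle, fell 5.93-fold (log2 -2.57, SE 0.06) and stayed below 0 on the spike-in scale. GLT1, for glutamate synthase, fell 1.61-fold and CCP1, for cytochrome c peroxidase, 1.56-fold, both above 0 on the spike-in scale. LEU1, for an enzyme of leucine synthesis, rose 1.45-fold.

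**Figure D4:**
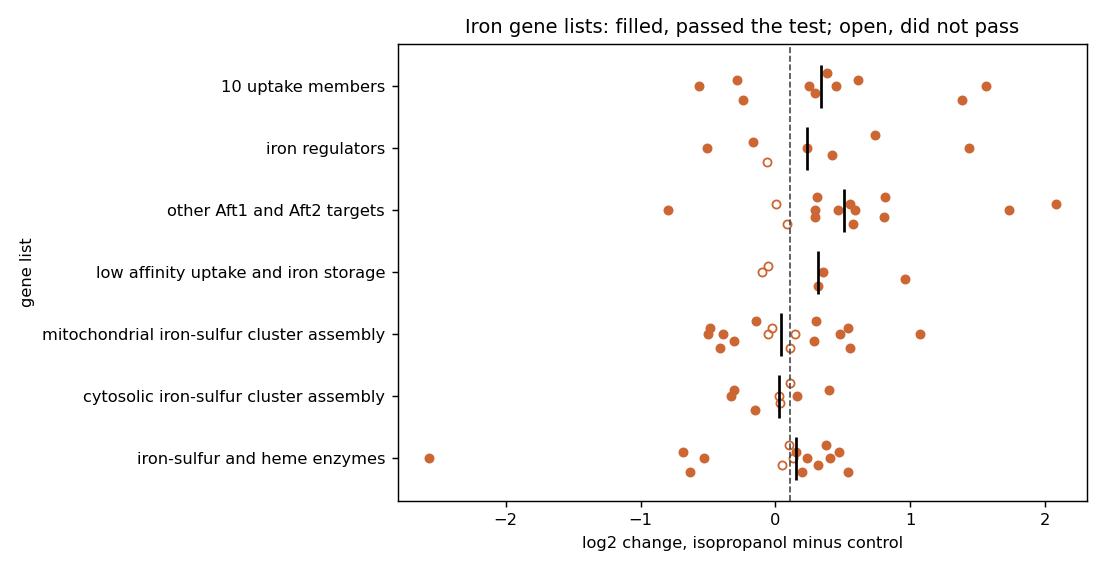
Log2 change, isopropanol minus control (horizontal axis), of each tested gene in 7 iron lists (rows), filled where it passed the limma test and open where it did not, with black lines at list medians and a dashed line at the median of all tested genes (0.11). The uptake members and the other Aft1 and Aft2 targets have medians of 0.34 and 0.51, and the point at far left is ACO1 at -2.57. Relative to genes of like signal, those medians are 0.09 and 0.32.

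The genes outside these lists whose readings most resembled the mean profile of the 10 members over the 8 arrays were MET13 (Pearson r = 0.999), a gene of folate metabolism, OPT2 (0.998), of the oligopeptide transporter family, MSS18 (0.998), VHR1 (0.998) and MRE11 (0.998), for a DNA repair nuclease. Among these genes only OPT2 was not well above background on all 8 arrays, so its likeness rests partly on readings short of that level. VHR1 encodes the factor that activates VHT1. With 2 groups of 4 arrays, such likeness is set mainly by the step between the groups: 1424 genes had r above 0.95.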

How the data were processed

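The authors read the arrays with Agilent Feature Extraction, 9.5.3.1 per the file headers (version 9 in the submitters' processing notes). The deposited processed signal is a background-subtracted intensity, not scaled between arrays. The flags are other columns of the deposited files. The deposited series matrix holds log2 values. Against the scanner values (rank correlation 0.997 to 1.000 over 6256 probes) they proved to be relative to the array's own 75th percentile, in the same direction and with no centring of genes (column medians -1.53 to -1.34).

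The log2 processed signal minus each array's 75th percentile was averaged over spots, leaving out flagged spots (0 to 21 per array) and control spots. A probe was tested if 1 or both groups had it well above background on all their arrays. All 10 members were so on all 8 arrays. The brightest probe stood for each of 25 genes with several. The test was limma's moderated fit (version 3.58.1, in R 4.3.3), adjusted by Benjamini-Hochberg over 5816 genes and tested on simulated data. The number of arrays limits precision. Members and gene lists were chosen with earlier results of these data known. Named are all members and regulators, up to 4 genes per other list (of those that passed, the most changed), and the 5 genes of most similar profile. Alternatives were other scalings, background correction, filters, blocks and left-out arrays. The spike-in scale used 5 of 10 spike-in probes, those measured on all arrays. Names came from RefSeq (R64), and 5765 probes matched. No coordinates are printed, since the arrays were designed on another build (sacCer1).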

Additional observations from a re-analysis of the deposited data

Results flagged for a closer look

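Among 98 groups of 4 arrays examined (49 named genes in both conditions), 4 held 1 array far from the other 3 by Dixon's test at 95%, and chance flags about 5% of such groups. SIT1 read -2.12 on control replicate 4, against -2.28 to -2.26 on the other controls. This is the array nearest to the isopropanol group for that gene. MRS3 read -1.65 on control replicate 2, against -1.53 to -1.50. On the same array MSS18 read -2.78, against -2.85 to -2.84, and VHR1 read -2.32, against -2.47 to -2.45. All 4 genes kept their direction and their call when that array was left out.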

How the results depend on the processing

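Over 19 alternatives other than spike-in scaling, 6 of the 10 members kept their direction and call (FET3, FTR1, ARN1, ENB1, FIT1 and FIT2). The other 4 lost the call under 1 to 3 of them, in each case with another scaling or background correction. FRE2, SIT1 and FIT3 each lost it under 3 of median centring, quantile normalization, normexp with quantile normalization and cyclic loess. Each member has 1 probe, well above background on all 8 arrays. Changed filters and the mean of several probes therefore could not move a member's log2 value, and the replicate block altered only its SE. The authors' values are on the same scale as reported. Members counted as higher were 4 in place of 7 after quantile normalization, with normexp and quantile normalization, and after cyclic loess (added after seeing the data), with 3 lower each time. Over all tested genes the shares higher and lower were 35.2% and 38.4%, 33.6% and 34.2%, and 37.1% and 36.9% in that order. The member counts were near those shares. Leaving out any 1 array left 7 higher and 3 lower, with 2688 to 2777 genes higher and 1670 to 1767 lower over the whole table, and so did leaving out control replicate 3 and isopropanol replicate 1 together for the members. On the spike-in scale 8 members were higher and 0 lower, or 9 and 0 without isopropanol replicate 1, an alternative added after seeing the data. Over all genes 4525 were then higher and 19 lower, or 4868 and 77 without that array. Increases made up 61.3% of changed genes as reported, 45.1% with median centring, 47.8% with quantile normalization and 49.5% with normexp and quantile normalization together.

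On the spike-in scale, with the value without isopropanol replicate 1 second, FET3 turned to 0.93 and 0.49, FTR1 to 0.88 and 0.47, ENB1 to 0.60 and 0.21, AFT2 to 1.10 and 0.70, GRX4 to 0.66 and 0.26, BOL2 to 0.99 and 0.58, and YFH1 to 0.66 and 0.26. CIA1 turned to 0.83 and 0.42, TAH18 to 0.86 and 0.46, GLT1 to 0.48 and 0.13, CCP1 to 0.53 and 0.14, CCC1 to 1.11 and 0.71, SMF1 to 1.06 and 0.68, and ISU1 to 0.77 and 0.31. VHT1 turned to 0.37, and to -0.04 without that array. That scale adds 1 shift to all genes of an array. FRE3 turned to -0.33 after quantile normalization, -0.22 with normexp and quantile normalization and -0.27 with cyclic loess, and passed as lower in each. ATX1 turned to -0.15 after median centring and passed as lower. The cause was not tested.

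With normexp and quantile normalization, FRE2 minus FRE1 also reached the smallest possible exact p, which lowered the adjusted p of every tied pair. Within-array differences then had adjusted exact p = 0.0381 for FIT3 minus FIT2 (-0.21), ARN2 minus ARN1 (-0.65) and FRE2 minus FRE1 (-0.51). Leaving out 1 array gave -1.39 to -1.25, -1.01 to -0.99, -0.20 to -0.08 and, for FTR1 minus FET3, -0.10 to -0.02, where 3 against 4 arrays cannot go below an exact p of 0.0571. Replicate numbers did not pair the arrays (correlations of same-numbered deviations -0.16 to 0.04). With the replicate block, 2698 genes were higher and 1692 lower and the members' calls were as reported. Slide as a block could not be fitted, since each slide holds 1 group.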

Other observations

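Pairs of related iron genes can be set side by side. The scaffold genes ISU1 and ISU2 of mitochondrial cluster assembly went in opposite directions: ISU1 fell 1.31-fold (log2 -0.39, SE 0.09, limma adjusted p = 0.0032, n = 4 arrays per group), with isopropanol replicate 4 lowest at -1.04, while ISU2 rose 2.10-fold. On the spike-in scale ISU1 was above 0 as well (0.77). The mitochondrial carrier genes MRS3 and MRS4 both rose, by 1.28-fold and 1.23-fold, but MRS4 did not pass after quantile normalization (0.07). ISU1 and MRS4 were named after their values were seen, and the differences within these pairs were not tested.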
